A study of Homo sapiens with 2 samples.

Results

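Amino acid transporter genes of 6 solute carrier families (SLC1A, SLC3A, SLC7A, SLC36A, SLC38A and SLC43A) were examined in PC-3 cells, a human prostate cancer cell line that grows without androgen. A gene was a member when its symbol began with one of these family names followed by a number and when at least 1 probe set on the array was annotated to that gene alone. The rule found 43 genes, measured by 99 probe sets, of 19775 genes so measured. Of the 43 genes, 38 encode carriers or the heavy chains that accompany them. The other 5 share only the name, and these were SLC7A6OS, which lies opposite SLC7A6, and the antisense RNAs SLC7A11-AS1, SLC7A14-AS1, SLC38A4-AS1 and SLC38A2-AS1.

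The study asked how Riccardin D (RD), a macrocyclic bisbibenzyl from a liverwort, affects these cells. RNA of RD-treated cells, at 10 µmol/L for 24 h, was compared with RNA of control cells. The dose comes from the study's supplementary material and not from the sample labels. The control is taken as cells given the DMSO vehicle, as the treatment protocol has it, although its source name calls the cells untreated. Both conditions used the same cell line and medium, and each was measured on 1 Affymetrix HG-U133 Plus 2.0 array, so that no replicate error exists and no test was made. An effect of RD therefore cannot be told apart from other differences between the 2 cultures or between the 2 arrays. In bulk RNA, fewer cells expressing a gene and less of its RNA per cell cannot be told apart.

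Amino acids cross membranes mainly through carriers, and each family moves its own range of them. Many members of SLC7A carry amino acids across the plasma membrane, and several reach it only as a pair with a heavy chain of SLC3A. Members of SLC1A carry glutamate or small neutral amino acids, and many of SLC38A carry glutamine and other neutral amino acids. Those of SLC36A move amino acids with protons, and SLC43A1 and SLC43A2 carry large neutral amino acids by facilitated diffusion. In cells short of amino acids or under other stress, phosphorylation of eIF2α increases translation of the transcription factor ATF4, and several carrier genes are known targets of ATF4. SLC7A11 is also known as a target of NRF2, the regulator of the antioxidant response.

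Signals are MAS5 intensities on a linear scale and in arbitrary units. A level cannot be compared between genes, because each probe set has its own response. A floor was set at 66.9, the median signal over the 2 arrays, and signals under it were not read as levels. A gene was represented by its brightest probe set and was called higher or lower when its log2 difference (RD minus control) was at least 1 in size, which is 2-fold, and at least 1 of its signals reached the floor. Both arrays had been scaled alike, with means of 495.8 in control and 495.9 in RD after removal of the highest and lowest 2% of probe sets.

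More of the transporter genes were called higher than lower in RD-treated cells. Of the 43 genes, 30 reached the floor, and 8 of these were called higher, namely SLC3A2, SLC1A7, SLC7A11, SLC7A14, SLC7A1, SLC1A4, SLC38A1 and SLC1A5. Another 2, SLC1A3 and SLC38A2-AS1, were called lower. Over all 12818 genes at the floor, 12.1% were called higher and 13.3% lower. The signal was higher in RD for 19 of the 30 genes and lower for 11, with a median log2 difference of 0.48, whereas the median of all genes at the floor was -0.00. Of the 28 carriers and heavy chains at the floor, 8 were called higher and 1 lower, with a median of 0.50.

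The calls divided by brightness. In SLC1A7, SLC7A14, SLC1A3 and SLC38A2-AS1 the lower signal lay under the floor, and measured against the floor these 4 differences stayed under 2-fold. The other 6 called genes were bright on both arrays, meaning that each signal reached 377.4, the 75th percentile. Among the 14 member genes of such brightness, 6 were called higher and 0 lower, and the median log2 difference was 0.76. Among all 7050 genes of such brightness, 7.96% were called higher and 8.45% lower, and the median was 0.01. When every signal below the floor was set to the floor, 6 member genes were called higher and 0 lower, against 8.24% and 9.1% of all genes, and the median of the 30 genes was 0.35. With a limit of 1.5-fold, 13 were called higher and 4 lower, against 22.8% and 24.7% of all genes at the floor. With a limit of 3-fold, 3 were called higher (SLC3A2, SLC7A11 and SLC1A7) and 1 lower (SLC1A3), against 5.21% and 6.05% of all genes.

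**Figure D1:**
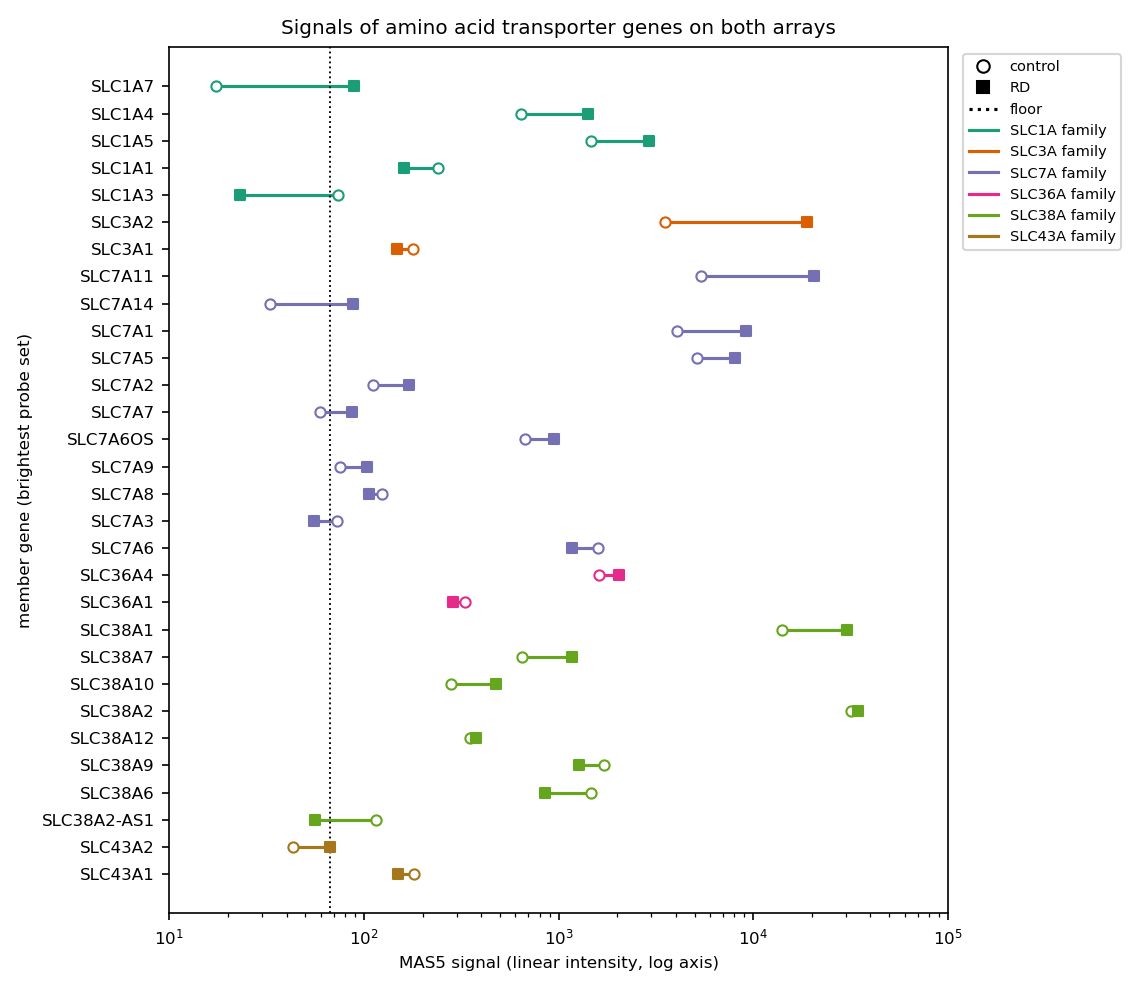
MAS5 signal (linear intensity, log axis) of the brightest probe set of each of the 30 member genes at the floor, on the control array (open circle) and the RD array (filled square), coloured by family and ordered within it by log2 difference. The dotted line is the floor, 66.9. SLC3A2, SLC7A11, SLC7A1, SLC1A4, SLC38A1 and SLC1A5 have both signals well above it and lie 2-fold or more further right in RD.

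**Figure D2:**
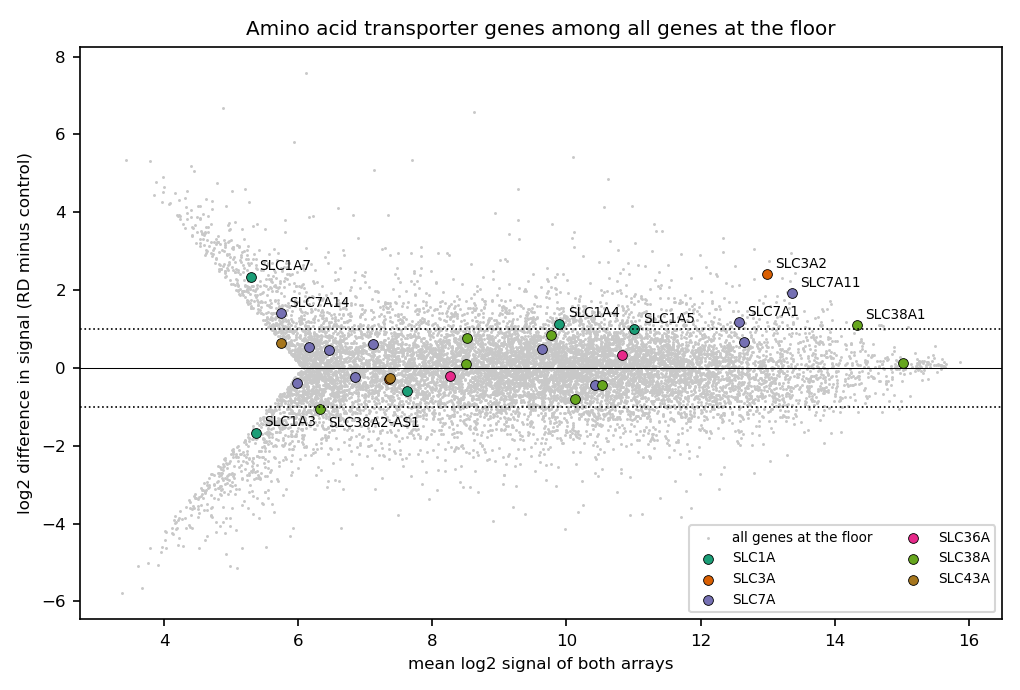
Log2 difference (RD minus control) against mean log2 signal for all 12818 genes at the floor (grey) and for the 30 member genes among them (coloured by family), with dotted lines at 2-fold. The bright called members lie on or above the upper line, while SLC1A3 and SLC38A2-AS1 lie at the dim end under the lower line.

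The widest difference among bright members was in SLC3A2, the heavy chain that carries light chains of SLC7A to the plasma membrane. Its only single-gene probe set gave a signal of 3530.7 in control and 18813 in RD, which was 5.33-fold higher. No second probe set of SLC3A2 checks this value, and the probe set is of a kind that can match several transcripts. Its light chain SLC7A11, which takes up cystine in exchange for glutamate, gave 5415.2 in control and 20485.5 in RD, 3.78-fold higher. The other probe sets of SLC7A11 gave 916.4 and 3715.6, and 5321.9 and 17111.8, so that all 3 were above 2-fold. Both parts of the cystine and glutamate exchanger were thus called higher.

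The other light chains that pair with SLC3A2 were not called. SLC7A5, the main system L exchanger for leucine and other large neutral amino acids, gave 5117.6 in control and 8099.9 in RD, a log2 difference of 0.66. SLC7A8, the second system L light chain, gave 124.5 and 106.1 (-0.23) on its brightest probe set and 76.3 and 84.7 (0.15) on another, so that its direction was not settled. SLC7A6, which exchanges cationic for neutral amino acids (system y+L), gave 1596.9 and 1173.3 (-0.44), and its other probe sets were also lower in RD at -0.40 and -0.29. SLC7A7, of the same system, gave 59.3 in control, under the floor, and 86.8 in RD. SLC7A10 did not reach the floor. The heavy chain had thus a difference of 2.41 on the log2 scale, and its light chains at the floor ranged from -0.44 to 1.92.

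SLC3A1, the other heavy chain, gave 179.4 in control and 147.8 in RD (-0.28), and its partner SLC7A9, with which it takes up cystine and cationic amino acids in kidney and gut, gave 75.4 and 103.5 (0.46). Neither was called.

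Among carriers of arginine, lysine and ornithine, SLC7A1, the widely expressed one, gave 4036.7 in control and 9139.6 in RD, 2.26-fold higher. Its second brightest probe set gave 846.8 and 1808.1 (1.09). The other 3 were dimmer and gave differences of 0.92, 0.54 and 2.51, the last from a control signal of 15.9, under the floor. All 5 probe sets were higher in RD. SLC7A2 gave 111.6 and 170.5 (0.61), and SLC7A3 gave 72.3 and 55.1 (-0.39), the RD signal being under the floor. SLC7A14, a carrier of lysosomes, gave 32.9 in control and 87.7 in RD, at least 1.31-fold higher, while its other probe set stayed under the floor at 31.2 and 46.9.

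Both system ASC carriers were called higher. SLC1A4, which carries alanine, serine and cysteine, gave 642 in control and 1410.7 in RD, 2.20-fold higher. Its other probe sets gave differences of 0.95, 1.31, 1.0 and 0.94, so that all 5 were higher in RD, from 0.94 to 1.31. As the median of its probe sets, or without the probe sets that can match several transcripts, SLC1A4 stayed just short of a call. SLC1A5, the exchanger known for glutamine uptake, gave 1459.6 in control and 2919.2 in RD, 2.00-fold higher on its only probe set. It lay exactly on the limit for a call. After median centring, after quantile normalisation or with an offset added to the signals, it was not called. The nearest gene outside the limit was SLC38A7 at 1.81-fold.

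The glutamate carriers of SLC1A were dim or discordant. SLC1A1 gave 241.4 in control and 160.9 in RD (-0.59). SLC1A3 gave 73.4 and 23.2, at least 1.10-fold lower, and its second probe set was under the floor. SLC1A7 gave 17.4 and 88.5, at least 1.32-fold higher, on its brightest probe set, whereas another gave 72.9 and 7.5, at least 1.09-fold lower. In both, 1 of the signals lay under the floor, so that no direction was settled for SLC1A7. SLC1A2 and SLC1A6 were under the floor. The median of the 5 SLC1A genes at the floor, 1.0, became -0.47 when each gene was given by the median of its probe sets. That value is the one of SLC1A7, averaged from the same 2 probe sets with a signal under the floor, and it is not a measured decrease. The 1.0 in turn counts SLC1A7 as higher. With every signal below the floor set to the floor the median was 0.40, again the value of SLC1A7. The 1.0 is therefore no measured increase of the family either.

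In system A, which takes up small neutral amino acids with sodium, only SLC38A1 was called. SLC38A1 gave 14120.4 in control and 30260 in RD, 2.14-fold higher. Its other probe sets at the floor gave 10682.4 and 25242.4 (1.24), and 1041.8 and 2535.4 (1.28), and the last was under the floor. SLC38A2, the member known to be induced by lack of amino acids, gave 31733.1 and 34694.9 (0.13), 28614.9 and 26969.7 (-0.09), and 26535.1 and 24584.7 (-0.11). These 3 signals were within 0.13 of no difference and on both sides of it, so that no direction could be given. They were already very bright in control, and whether signals of this size could have read 2-fold higher was not tested. SLC38A4 was under the floor. SLC38A2-AS1, the antisense RNA at SLC38A2, gave 115.4 in control and 56 in RD, at least 1.72-fold lower.

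The remaining SLC38A genes were not called. SLC38A7, a lysosomal glutamine carrier of system N type, gave 648.6 in control and 1171.6 in RD (0.85), and its other probe sets were also higher in RD. SLC38A9, the lysosomal arginine sensor that acts on mTORC1, gave 1707.7 and 1270.2 (-0.43), while a dimmer probe set gave 151 and 173.9 (0.20). SLC38A6 gave 1469.5 and 847.8 (-0.79), which was 1.73-fold lower and the lowest value among bright members. SLC38A10 gave 278.6 and 478.5 (0.78), but another probe set gave 297.9 and 108 (-1.46), so that its direction was not settled. SLC38A12, formerly TMEM104, gave 349.8 and 374.6 (0.10). SLC38A3, SLC38A5 and SLC38A11 were under the floor.

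Of the proton-coupled carriers, SLC36A4 gave 1620.4 in control and 2038.3 in RD (0.33). SLC36A1, which exports amino acids from lysosomes, gave 329.4 and 286.8 (-0.20), and a second probe set gave 110.9 and 46.7. In the SLC43A family, SLC43A1 gave 180.8 and 150.1 (-0.27), and SLC43A2 gave 43.1 and 67.3, the RD signal being just above the floor. None of these 4 genes was called. SLC43A3, a carrier of nucleobases, was under the floor, as were SLC7A4, SLC7A13 and the antisense RNAs SLC7A11-AS1, SLC7A14-AS1 and SLC38A4-AS1. SLC7A6OS gave 673.3 and 947.9 (0.49), opposite in sign to SLC7A6.

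By family, the median log2 difference of genes at the floor was 1.0 in SLC1A (5 of 7 genes), 1.07 in SLC3A (2 of 2), 0.55 in SLC7A (11 of 16), 0.07 in SLC36A (2 of 2), 0.11 in SLC38A (8 of 13) and 0.19 in SLC43A (2 of 3). The higher calls fell in SLC1A (3), SLC7A (3), SLC3A (1) and SLC38A (1). SLC1A7 and SLC7A14 reached the floor only in RD, and without them SLC1A and SLC7A had 2 each. With so few genes each, 1 gene could set a median, and the difference between families was not tested. The SLC1A median depended on SLC1A7, whose direction was not settled.

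In place of a replicate error, the spread between probe sets of one gene was taken. Of the 14 member genes with 2 or more probe sets at the floor, 9 had all of them on the same side of 0, and SLC1A7, SLC7A8, SLC38A2, SLC38A9 and SLC38A10 did not. The within-gene standard deviation of the log2 difference was taken over probe sets whose higher signal reached the 75th percentile. This rule is looser than the one for bright genes, where each signal reached it. The standard deviation was 0.16 over 21 such member probe sets of 8 genes. Over 8576 such probe sets of 3382 genes on the whole array it was 0.34. At the floor it was 0.93 over 40 member probe sets of 14 genes and 0.76 over 18518 probe sets of 6518 genes. These values cover differences between probe sets and not those between cultures. Counted by probe set, 56 of the 99 reached the floor, and 16 of these were at least 2-fold higher and 5 at least 2-fold lower, against 14.2% and 13% of all probe sets at the floor.

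**Figure D3:**
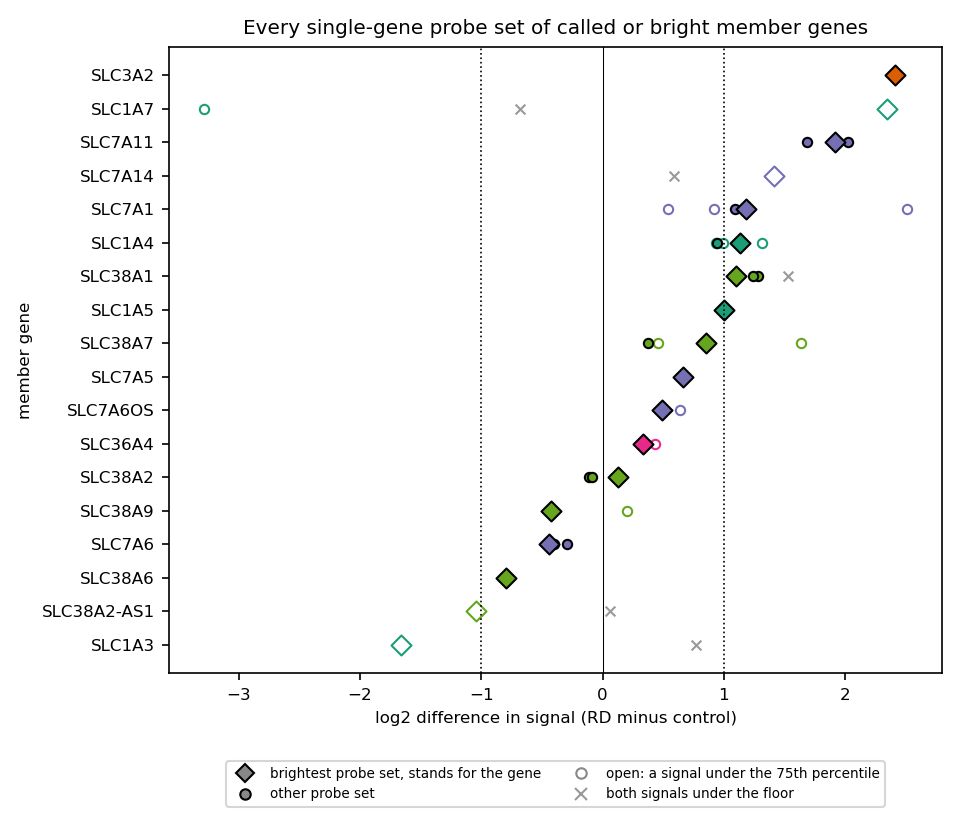
Log2 difference (RD minus control) of every single-gene probe set of the member genes that were called or were bright on both arrays, with dotted lines at 2-fold. Diamonds are the brightest probe sets, circles the others, open symbols have a signal under the 75th percentile, and crosses lie under the floor on both arrays. The probe sets of SLC7A11, SLC7A1, SLC1A4 and SLC38A1 all lie right of 0, whereas those of SLC1A7 and SLC38A2 lie on both sides, those of SLC1A7 each with a signal under the floor.

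Because known ATF4 and NRF2 targets were among the members, RefSeq promoters (GRCh38.p14) were searched on both strands for 3 motifs. These were TGATGNAA, the form of site that ATF4 binds with a C/EBP partner, TGATGCAAT, a longer form that contains it, and TGACNNNGC, the core of the antioxidant response element bound by NRF2. A promoter was held for 33 of the 43 member genes, with 56 transcription starts, and not for SLC7A11. In the 250 bases before a start, TGATGNAA lay in 3.14% of 35116 promoters, in 3.89% of genes and in 2 members, SLC1A5 and SLC1A3. When 50 bases after the start were added, a window chosen after the data were seen, it lay in 3.62% of promoters and 4.46% of 27305 genes. It was then found in 5 of the 7 genes called higher that had a promoter (SLC1A4, SLC1A5, SLC38A1, SLC3A2 and SLC7A1) and in 1 of the 26 other members, SLC1A3, which was called lower. Counted by start, these were 5 of 13 and 1 of 43. The share in the genes called higher thus depended on the window, being 1 of 7 in the narrower one. TGATGCAAT lay in 0 member promoters and in 0.236% of all. TGACNNNGC lay in 3 of the 7 and 5 of the 26 genes in the wider window, against 16.1% of all genes and 13.3% of promoters. The 3 were SLC1A5, SLC3A2 and SLC7A1, and the 5 were SLC1A3, SLC38A2-AS1, SLC7A5, SLC7A6 and SLC7A7. Of these 5, SLC1A3 and SLC38A2-AS1 were called lower and the others were not called. In the narrower window TGACNNNGC lay in 3 of the 7 and 4 of the 26, against 13.2% of all genes and 10.9% of promoters.

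The matches are shown for the genes with TGATGNAA and, for SLC3A2, also for TGACNNNGC, since SLC3A2 had the largest difference among bright members. SLC3A2 was thus picked by its difference, and the TGACNNNGC matches of the other genes are not shown. Each line gives 30 bases of the strand of the gene, 5′ to 3′, with the match in capitals. TTGCATCA and TTACATCA are the motif on the opposite strand. The windows are chr2:64989381-64989410 (plus strand) for SLC1A4, chr19:46784893-46784922 (minus strand) for SLC1A5, chr12:46266502-46266531 (minus strand) for SLC38A1, chr11:62881719-62881748 and chr11:62881652-62881681 (plus strand) for SLC3A2, chr13:29595663-29595692 (minus strand) for SLC7A1, and chr5:36596357-36596386 (plus strand) for SLC1A3. The TGATGNAA matches of SLC1A4 and SLC38A1 span the transcription start, and those of SLC1A5 and SLC1A3 lie before it. The TGATGNAA matches of SLC3A2 and SLC7A1 begin at bases 38 and 8 of the transcript. The TGACNNNGC match of SLC3A2 lies before the start, from -37 to -29. The windows of SLC1A4, SLC1A5, SLC38A1 and SLC3A2 belong to starts downstream of the first start listed for the gene.
SLC1A4: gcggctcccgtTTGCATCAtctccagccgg
SLC1A5: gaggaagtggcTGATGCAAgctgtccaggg
SLC38A1: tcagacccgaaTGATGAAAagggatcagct
SLC3A2, TGATGNAA: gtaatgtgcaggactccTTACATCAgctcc
SLC3A2, TGACNNNGC: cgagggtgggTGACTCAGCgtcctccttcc
SLC7A1: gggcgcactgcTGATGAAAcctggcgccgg
SLC1A3: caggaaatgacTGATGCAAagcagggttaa
A match of letters does not show that a factor bound there, and binding was not measured here.

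Other solute carriers gave a reference for the members. Of 333 other SLC genes, 209 reached the floor, and 23 were called higher and 32 lower, with a median of -0.00. Among amino acid carriers outside the 6 families, 16 of 32 reached the floor, 3 were called higher and 3 lower, and the median was -0.25. Both sets of counts stand beside 12.1% called higher and 13.3% called lower over all genes at the floor. SLC25A38, the mitochondrial glycine carrier, gave 1261.2 in control and 2687.1 in RD, 2.13-fold higher, and SLC6A9, a plasma membrane glycine carrier, gave 97.7 and 264.4, 2.71-fold higher. SLC6A19, a carrier of neutral amino acids in kidney and gut, was at least 1.56-fold higher. The mitochondrial exchangers of aspartate for glutamate were both lower in RD. SLC25A13 gave 2348.5 and 725.7, 3.24-fold lower, and SLC25A12 gave 1555.7 and 555.8, 2.80-fold lower. SLC17A7, which loads glutamate into vesicles, was at least 1.10-fold lower.

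Genes of the response to lack of amino acids, which other stress can also induce, were counted in the same way. The list also holds eIF2α kinases, and a lack of amino acids was not measured here. It was chosen with earlier results of these data known, so that its counts are no independent evidence. All 21 genes reached the floor, 15 were called higher and 1 lower, and the median was 1.33. Over all genes at the floor, 12.1% were called higher and 13.3% lower. ATF4 itself gave 18594.1 in control and 39419.6 in RD, 2.12-fold higher. ATF3, a transcription factor of the stress response, gave 812.5 and 9306, 11.5-fold higher. DDIT3, which encodes CHOP, gave 1838.1 and 14414.3 (7.84-fold), and NUPR1, a stress-induced nuclear protein, gave 213 and 1437.4 (6.75-fold). ATF5 was the one called lower, at 625.8 and 278.4, 2.25-fold. Of the eIF2α kinases on the list, EIF2AK4 gave 1068.8 and 696.6 (-0.62) and was not called. EIF2AK3 gave 1166.6 and 4171.3, 3.58-fold higher.

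Of genes that use cystine or make glutathione, 12 of 13 reached the floor, 6 were called higher and 1 lower, and the median was 0.87. The shares over all genes at the floor were 12.1% and 13.3%. GCLM and GCLC, the subunits of the enzyme that joins glutamate to cysteine, gave 4669 and 25204.8 (5.40-fold higher) and 1295.8 and 5681.3 (4.38-fold higher). CTH, which makes cysteine from cystathionine, was 3.25-fold higher. GSS, which completes glutathione, gave 7665.5 and 3331.4, 2.30-fold lower. CHAC2, which degrades glutathione, gave 2202.3 and 1104 and stayed just outside the limit for a lower call.

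All 10 measured enzymes of glutamine, glutamate and asparagine reached the floor, and 3 were called higher and 0 lower, with a median of 0.59. Of all genes at the floor, 12.1% were called higher and 13.3% lower. GFPT1, which uses glutamine to make hexosamines, gave 1935.3 and 10574.7 (5.46-fold higher). GOT1, the cytosolic aspartate aminotransferase, gave 2855.9 and 8131.7 (2.85-fold). ASNS, asparagine synthetase, gave 8740.3 and 21711.6 (2.48-fold) and also stands in the preceding list of response genes. GOT2, the mitochondrial aminotransferase, had a log2 difference of -0.49, and GLUD1, glutamate dehydrogenase, one of -0.40.

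Of the enzymes of branched-chain amino acids and arginine, 11 of 12 reached the floor, 1 was called higher and 0 lower, and the median was 0.07. ASS1, which makes argininosuccinate, gave 143.7 and 385.9 (2.69-fold higher). Among genes of amino acid sensing at the lysosome, 18 of 20 reached the floor, 2 were called higher and 1 lower, and the median was -0.09. The counts of both lists stand beside 12.1% called higher and 13.3% called lower over all genes at the floor. SESN2, a leucine sensor, gave 1003.5 and 3584 (3.57-fold higher) and RRAGC, a GTPase that recruits mTORC1, gave 3655.6 and 7958.9 (2.18-fold higher). LAMTOR4, of the complex that anchors these GTPases, gave 2193.3 and 1058.2 (2.07-fold lower). The lists share genes, and their differences from all genes were not tested.

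**Figure D4:**
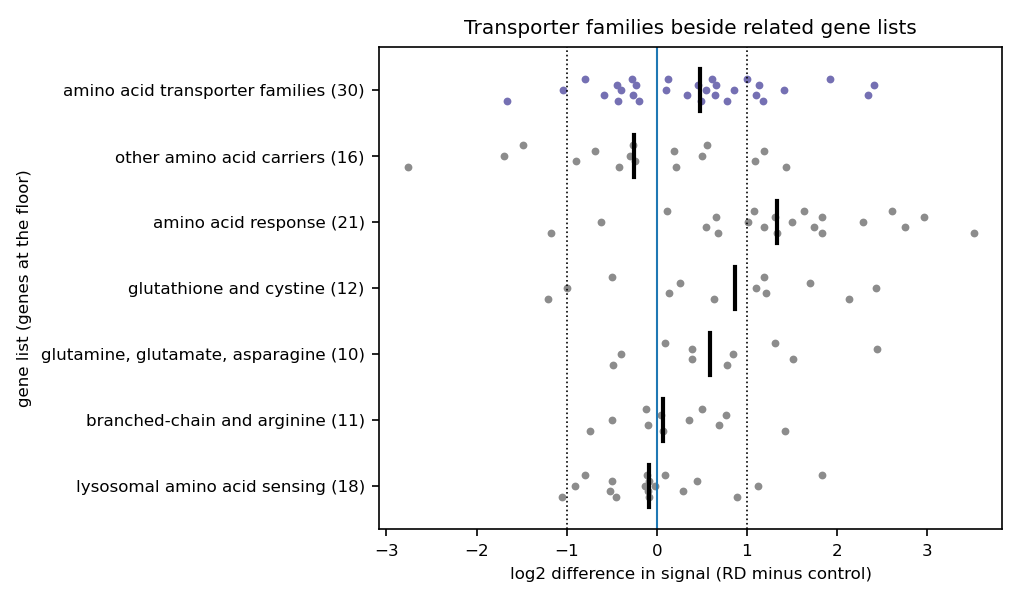
Log2 difference (RD minus control) of each gene at the floor in the transporter families and the lists of amino acid genes, 1 point per gene, with the median of each group as a black bar, the median of all genes at the floor as a blue line and dotted lines at 2-fold. The response genes have a median of 1.33 and the member genes one of 0.48, whereas the median of all genes is -0.00. Members and lists were chosen with earlier results of these data known.

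The labelled cell type was checked against its markers. The epithelial keratin KRT18 gave 10224.2 in control and 15416.6 in RD, and KRT8 gave 113.8 and 159.3. EPCAM and KRT19, which epithelial cells usually express, were under the floor on both arrays, so that not all markers of the label were present. KLK2 and KLK3 mark androgen-dependent luminal cells of the prostate and are low or absent in PC-3. KLK2 was under the floor, but KLK3 gave 131.4 and 230.6, above the floor on both arrays, which went against the label. Of markers of other cells, PTPRC, CD3E, CDH5 and COL3A1 were under the floor, and PECAM1 (121.6 and 72.7) and COL1A1 (370.6 and 325.8) were above it. Their part in the results was not tested.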

How the data were processed

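RNA of PC-3 cells, control or exposed to RD, was hybridised to 1 HG-U133 Plus 2.0 array per condition. The authors deposited linear intensities, which are MAS5 signals per the labels' processing notes. For MAS5, the version and the target of the scaling were not given in the sources used here. MAS5 subtracts mismatch signals, so that low signals are noisy. No further scaling or offset was applied. Of 54613 probe sets, 41091 had 1 gene symbol in the platform annotation, 1801 had several and stood for no gene, and 11721 were unnamed here. Symbols were checked by gene ID against RefSeq (41037 matched, 0 changed). Each gene was represented by the probe set with the highest mean log2 signal. The number of arrays limits the precision, and no test was made.

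The text gives all member genes, and up to 3 genes at each end of other lists. Members and lists were chosen with earlier results of these data known. CHAC2, ATF4, EIF2AK3 and the cell type markers were named outside this rule. Alternatives were median centring, quantile normalisation, an offset at the 25th percentile of signals (17.1), signals raised to the floor, other probe sets per gene, other floors, and limits of 1.5-fold and 3-fold. Carrier genes only, both signals at the 75th percentile and the wider promoter window were added after seeing the data. Python 3.11.15, numpy 2.4.6 and pandas 2.3.3 were used. The calling rule, without the rounding tolerance of the counts, was tested on simulated data. Shifts were simulated only in genes with a control signal reaching the 75th percentile, so that recovery near the floor was not tested. Some genes were not analysed here.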

Additional observations from a re-analysis of the deposited data

Results flagged for a closer look

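Of the probe sets annotated to several genes, which stood for no gene, 6 carried a name of the SLC7A family, SLC7A5P1, a pseudogene of SLC7A5. Of these, 5 reached the floor and 1 was at least 2-fold higher, against 14.2% of all probe sets at the floor. The others at the floor had log2 differences of 0.01, 0.24, 0.20 and -0.35. The 1 that was higher had a signal of 270.1 in control and 632.4 in RD, a log2 difference of 1.23. It is given because it is a signal in data outside the comparison. It matches 8 genes, so that no one gene can be given the value.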

How the results depend on the processing

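No paired analysis was possible because each condition had 1 array and the labels carry no replicate numbers; for the same reason no array could be left out. Against 8 of 30 genes called higher (12.1% of all genes), there were 7 of 30 with median centring (11.7%) or an offset (10.6%) and 7 of 29 with quantile normalisation (11.5%). There were 6 of 30 with signals raised to the floor (8.24%) or the median over probe sets (12.6%), 6 of 21 with probe sets of unshared sequence (12.7%), 6 of 15 with the floor at the 75th percentile (9.91%), 6 of 23 with both signals at the floor (8.67%) and 12 of 43 without a floor (16.8%). At 1.5-fold 13 of 30 were called (22.8%) and at 3-fold 3 (5.21%). Against 2 of 30 called lower (13.3% of all genes), there were 1 with an offset (11.8%), 1 at 3-fold (6.05%) and 1 of 28 over carriers only. There were 0 with signals raised to the floor (9.1%), with the floor at the 75th percentile (10.9%), and with both signals at the floor (9.59%) or at the 75th percentile (8.45%), 4 at 1.5-fold (24.7%) and 7 of 43 without a floor (18%). The median of the members, 0.48, ranged from 0.24 (median over probe sets) to 0.78 (floor at the 75th percentile). The SLC1A median was 0.40 with signals raised to the floor and -0.47 by the median over probe sets, under which the medians of SLC36A and SLC38A were -0.17 and -0.10. The 0.40 and the -0.47 are both values of SLC1A7. Its 2 probe sets at the floor each have a signal under the floor and are bounded at 1.32-fold higher and 1.09-fold lower. The change of sign is thus no measured reversal, and the SLC1A median of the main setting, which counts SLC1A7 as higher, is limited in the same way. The SLC43A median was -0.34 with quantile normalisation (1 gene), 0.64 without a floor (3 genes), -0.27 with both signals at the floor (1 gene) and -0.13 with signals raised to the floor. The SLC3A median was 2.41 with the floor at the 75th percentile (1 gene), and SLC3A2 has no probe set of unshared sequence. Over such probe sets the glutamine, glutamate and asparagine enzymes had a median of 1.40. Apart from the construction of each alternative, the cause was not tested. Low signals limit SLC1A3, SLC1A7, SLC7A14 and SLC38A2-AS1.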
